A study of Rattus norvegicus with 69 samples.

Results

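The genes described here encode the oxidative phosphorylation machinery of hippocampal CA1, taken from the array by gene symbol: names starting with Nduf, Sdha to Sdhd, Uqcr, Cox4 to Cox8 or Atp5, and Cycs and Cyc1. The array carried 102 probe sets for 56 such genes, of 4736 genes with 1 symbol in all, and the brightest probe set stood for each gene. Of the 56, 24 encode subunits of complex I, 1 (Sdha) of complex II, 4 of complex III, 12 of complex IV (Ndufa4 included) and 9 of complex V. The other 6 share a name stem without being subunits of the complexes: Atp5if1 (the inhibitor of ATP synthase), Ndufaf3 and Sdhaf2 (assembly factors), Cox7a2l (a supercomplex factor), Ndufa4l2 and the pseudogene Cox6c-ps1. A gene entered the tests if its mean signal lay in the upper 50% of probe sets, which 53 of the 56 did, among 2689 genes tested. Cox5a, Cox8b and Cox6c-ps1 were dimmer.

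RNA of the CA1 block from 69 male Fischer 344 rats (Fisher 344 in the labels) aged 3 to 5 months was hybridized to 1 Affymetrix array per animal. Home cage (HC) controls numbered 5 in cohort 1 and 12 in cohort 2. Animals sleep deprived for 24 hours (24SD, 8 in each cohort) or 72 hours (72SD, 8 and 12) lived with their cage mate on small platforms over water. The animals under environmental stress (NES; 24NES, 10, and 72NES, 6) spent 24 or 72 hours in the same unfamiliar chambers with a grid over the platforms so that animals could sleep. All NES animals were in cohort 1 and share its 5 HC arrays with SD. Before exposure, SD and HC rats in cohort 1 learned an active avoidance task, whereas NES rats are not named among the trained, so training and the kind of exposure cannot be told apart in NES against HC or in SD against NES. Cage mates shared a chamber and are not identified, so that each p treats the animals as independent.

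Oxidative phosphorylation takes place in the inner mitochondrial membrane. Complexes I and II pass electrons from NADH and succinate to ubiquinone, complex III hands them to cytochrome c and complex IV to oxygen, while complexes I, III and IV pump protons that drive ATP synthase, complex V. Nuclear genes encode all of complex II and most subunits of the others, and neurons depend on this pathway for the ATP that restores ion gradients after firing.

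Signals are given as log2 of the deposited array signal and differences on the same scale. A probe set's signal also depends on its own sequence, so the signal of 1 gene is not set against that of another. On average over all arrays, complex I genes ranged from 9.62 (Ndufs1) to 14.44 (Ndufb8), complex III genes from 12.91 to 14.51, complex IV genes from 8.19 (Cox8b) to 15.23 (Cox8a), complex V genes from 12.60 (Atp5pf) to 14.40 (Atp5f1b), and Sdha was at 12.63. The 3 genes that mark the set, Cox5b, Ndufs4 and Atp5f1d, were all above the signal filter. The median signal of an array lay between 404 and 488. The 3′ to 5′ signal ratio of β-actin, a measure of RNA integrity, ranged from 0.901 to 1.76 over the arrays. In bulk tissue, fewer cells of a type and less RNA per cell cannot be told apart.

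**Figure D1:**
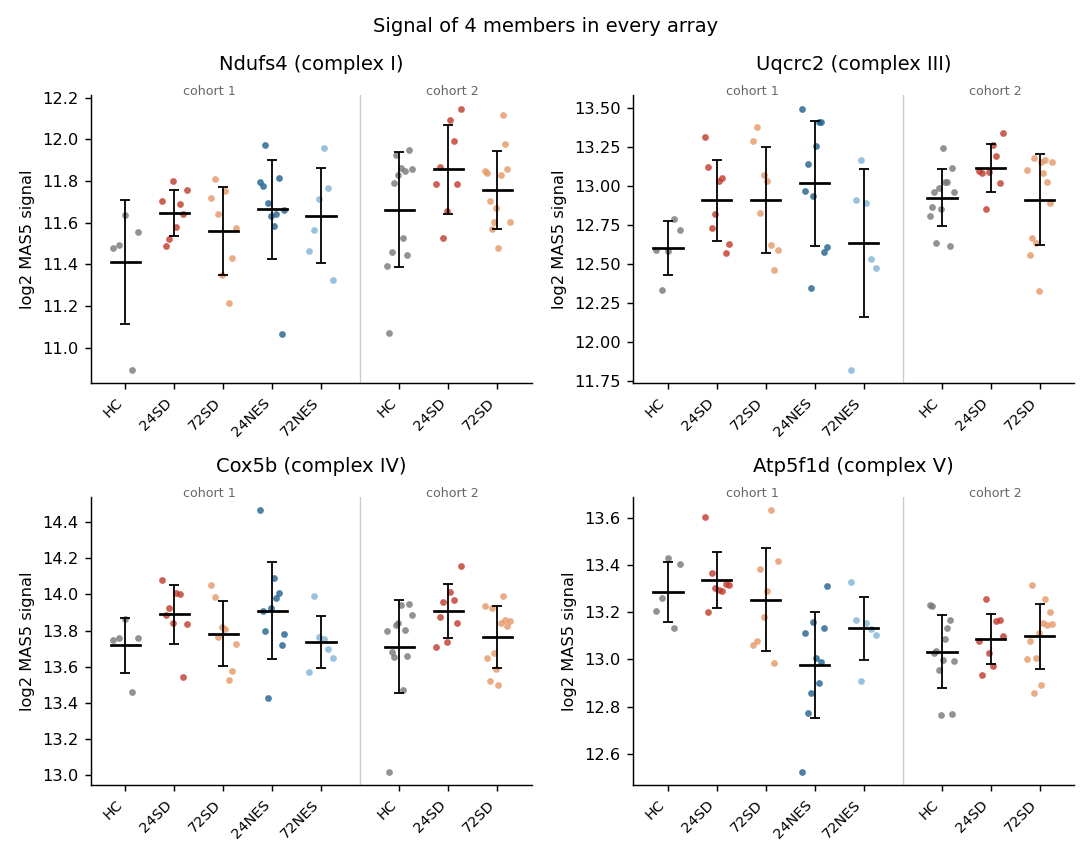
Signal of Ndufs4, Uqcrc2, Cox5b and Atp5f1d (log2 MAS5 signal, vertical axis) on every array in the 8 group by cohort cells (horizontal axis). Points are single animals, lines are means and bars are SD. HC and 24SD overlap within each cohort for all 4 genes, and 8 of 10 24NES arrays lie below all 5 HC arrays of their cohort for Atp5f1d.

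At 24 hours of SD the set leaned upward by a small amount, and no single gene passed the adjusted test. Of the 53 genes, 43 were above HC and 10 below, with a median difference of 0.073 and quartiles of 0.018 and 0.13. Over all 2689 genes the median was -0.016 and 45.1% were above HC. In limma with cohort in the model, 0 of the 53 genes had an adjusted p under 0.05, the smallest being 0.117, where 1.45% of all genes passed. At an unadjusted p under 0.05 there were 8 of the 53, or 15.1%, against a background of 19.1% of all genes, and the members' count ran from 2, in either cohort alone and with the β-actin ratio as a covariate, to 14 with each array centred on its median. All 8 were above HC, whereas 205 of the 514 genes under that threshold on the whole array were. The 8 were Ndufs4, Ndufa5, Ndufa6, Uqcrc2, Cox5b, Cox7b, Atp5pd and Cox7a2l. Most members are bright, and when the tested genes were split by signal into 5 equal bins, the genes of the brightest bin had a median of 0.0089 with 53.3% above HC. The 40 members in that bin had a median of 0.075 with 36 above HC. In the next bins down, 7 of 9, 0 of 1 and 0 of 3 members were above HC.

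Member promoters, including those of the 8 where an entry existed, were searched for short motifs of 3 regulators. Nuclear respiratory factor 1 (NRF1), the ETS factor GABPA and YY1 are known activators of respiratory chain genes. RefSeq (GRCr8) gave a promoter for 47 of the 56 members. Within 250 bases upstream of the start, on either strand, the ETS core CCGGAAG occurred in 9 member promoters (19.1%) and in 7.74% of 27457 promoters, the NRF1 core GCATGCGC in 2 (4.26%) and in 2.38%, and the YY1 core AAGATGGC in 1 (2.13%) and in 1.69%. Any of the 3 was present in 10 (21.3%), against 11.1% of all promoters. No overlap between motifs was removed. A match is a description of the letters, not of binding. The stretches below are from 4 of the 8 genes, with matches in capitals, 5′ to 3′ on the gene's strand. They were picked by hand, differ in length and include every gene of the 8 that held a match.
Ndufs4, chr2:47794915-47795034, minus strand: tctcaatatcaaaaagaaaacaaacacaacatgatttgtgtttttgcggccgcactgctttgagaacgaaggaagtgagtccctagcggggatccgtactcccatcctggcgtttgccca
Ndufa6, chr7:115750398-115750517, minus strand: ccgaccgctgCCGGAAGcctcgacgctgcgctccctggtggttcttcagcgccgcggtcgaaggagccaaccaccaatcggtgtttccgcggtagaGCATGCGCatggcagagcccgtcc
Uqcrc2, chr1:184599090-184599209, plus strand: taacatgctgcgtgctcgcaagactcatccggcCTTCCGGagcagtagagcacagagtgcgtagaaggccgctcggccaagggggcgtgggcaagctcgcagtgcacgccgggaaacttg
Cox5b, chr9:46417812-46417836, plus strand: tctgtctgttcCCGGAAGtgcatct
Ndufa6 held the ETS core from 190 and the NRF1 core from 104 bases upstream of its start, Uqcrc2 the ETS core on the opposite strand from 117, and Cox5b the ETS core from 14 bases upstream of the start used here. Ndufs4, Ndufa5, Cox7b and Cox7a2l held none of the 3 within the 250 bases, and Atp5pd had no promoter entry.

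**Figure D2:**
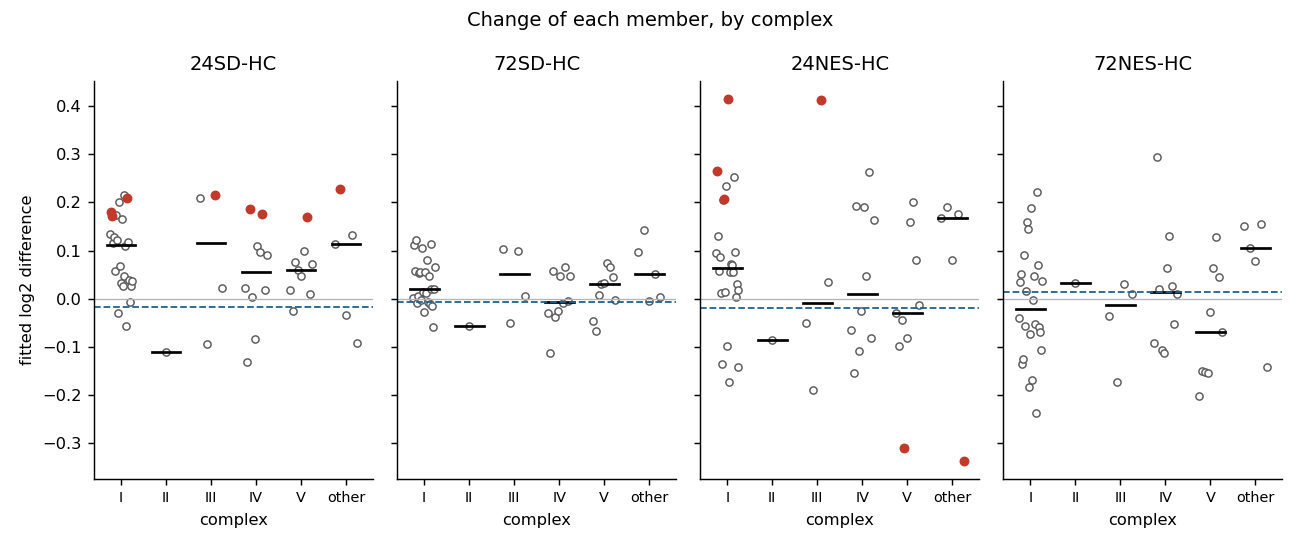
Fitted log2 difference from HC (vertical axis) of each tested gene by complex, with the 5 tested members outside the complexes as other (horizontal axis), at 24SD, 72SD, 24NES and 72NES. Circles are genes, filled red at an unadjusted p under 0.05, solid lines are medians of a complex and the dashed line is the median of all 2689 genes; at 24SD 21 of 24 complex I genes lie above 0, and Sdha of complex II lies below.

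Complex I, the entry point for NADH, had 21 of its 24 genes above HC at 24SD, with a median of 0.11. The median was 0.063 without HC array 6 of cohort 2, 0.037 in cohort 1 alone (16 of 24) and 0.098 in cohort 2 alone (21 of 24). Ndufs4, an accessory subunit needed for a stable complex, was 0.21 ± 0.076 (SE) higher, a fold of 1.16, with p = 0.0081 and an adjusted p of 0.121. In cohort 1 its signals in HC were 10.89, 11.48, 11.49, 11.56 and 11.63, and in 24SD the lowest, median and highest of 8 were 11.49, 11.67 and 11.80. In cohort 2 they were 11.07, 11.81 and 11.95 in 12 HC and 11.53, 11.83 and 12.15 in 8 24SD arrays. In cohort 1 5 of 8 24SD arrays exceeded every HC array and 1 HC array was far below the rest, while in cohort 2 the groups overlapped over most of their range.

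Ndufa5 and Ndufa6, accessory subunits of complex I, came next. Ndufa5 was 0.18 ± 0.080 higher (p = 0.029, adjusted p = 0.204) and 14 of 16 24SD arrays lay above their own cohort's HC mean. Ndufa6 was 0.17 ± 0.081 higher (p = 0.038, adjusted p = 0.228), by 0.09 in cohort 1 and 0.23 in cohort 2. The lowest of the 24 was Ndufs1, which carries iron-sulfur clusters in the electron entry arm, at -0.056, and the highest Ndufb9, a membrane arm subunit, at 0.22.

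Complex II was read through Sdha alone, its flavoprotein, and was the 1 complex with a negative median, -0.11 ± 0.070 (p = 0.12). In cohort 1 HC its signals were tightly placed at 12.55, 12.61, 12.62, 12.63 and 12.67, and the 8 24SD arrays ran from 11.94 through a median of 12.61 to 12.70. In cohort 2 the 12 HC arrays ran from 12.42 through 12.82 to 12.97 and the 8 24SD arrays from 12.13 through 12.69 to 12.83. The groups overlapped in both cohorts. In cohort 1 a few low arrays set the mean of 24SD, whereas in cohort 2 only 1 of 8 24SD arrays lay above the HC median.

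In complex III, which oxidizes ubiquinol, 3 of 4 genes were above HC at 24SD with a median of 0.12, or 0.070 without HC array 6 of cohort 2 (2 of 4), -0.017 in cohort 1 alone and 0.100 in cohort 2 alone. Uqcrc2, a core protein, was 0.22 ± 0.087 higher (p = 0.016, adjusted p = 0.169). Its HC signals in cohort 1 were 12.34, 12.58, 12.59, 12.72 and 12.79, and its 24SD signals ran from 12.57 through 12.93 to 13.31. In cohort 2 HC ran from 12.62 through 12.96 to 13.25 and 24SD from 12.85 through 13.09 to 13.34, so that 7 of 8 24SD arrays lay above the HC mean in each cohort and the ranges overlapped. Cyc1, cytochrome c1, was 0.21 ± 0.12 higher (p = 0.096), with differences of -0.063 in cohort 1 and 0.33 in cohort 2. In cohort 2, 8 of 8 24SD arrays lay above the HC mean of Cyc1 but only 3 of 8 above its HC median. Uqcr11, a small subunit, was at -0.094 ± 0.056 (p = 0.10).

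In complex IV, cytochrome c oxidase, 8 of 10 tested genes were above HC at 24SD with a median of 0.056. Cox5b, a nuclear subunit on the matrix side, had the smallest p of the set, with 0.19 ± 0.067 (p = 0.0073, adjusted p = 0.117), a fold of 1.14. Its signals in cohort 1 HC were 13.46, 13.74, 13.76, 13.76 and 13.87, and its 24SD signals were 13.54 at the lowest, 13.90 at the median and 14.08 at the highest. In cohort 2 HC ran from 13.02 through 13.80 to 13.95 and 24SD from 13.71 through 13.92 to 14.16. The difference was alike in the cohorts (0.17 and 0.20), with 7 of 8 24SD arrays above the HC mean in each, and the ranges overlapped.

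Cox7b, a small membrane subunit, was 0.18 ± 0.073 higher (p = 0.018, adjusted p = 0.173), with 15 of 16 24SD arrays over the mean of their HC animals. Cox5a, under the signal filter and tested over every probe set, was at 0.18 ± 0.11 (p = 0.11). Cox4i2, the isoform of subunit 4 tied to low oxygen, was at -0.13 in both cohorts together, with 0.13 in cohort 1 and -0.28 in cohort 2, where 0 of 8 24SD arrays lay above the HC mean.

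In complex V, ATP synthase, 8 of 9 genes were above HC at 24SD with a median of 0.060. Atp5pd, a subunit of the peripheral stalk, was 0.17 ± 0.078 higher (p = 0.033, adjusted p = 0.213). Atp5f1c, the central stalk gamma subunit, was at 0.077 ± 0.050 (p = 0.13). Atp5f1b, the catalytic beta subunit, was at -0.025, and Atp5f1d, the delta subunit of the central stalk, at 0.060 ± 0.055. The non-subunits Cox7a2l (0.23 ± 0.11, p = 0.0497), Ndufaf3 (0.13) and Atp5if1 (0.11) were above HC, and Sdhaf2 (-0.093) and Ndufa4l2 (-0.033) below.

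**Figure D3:**
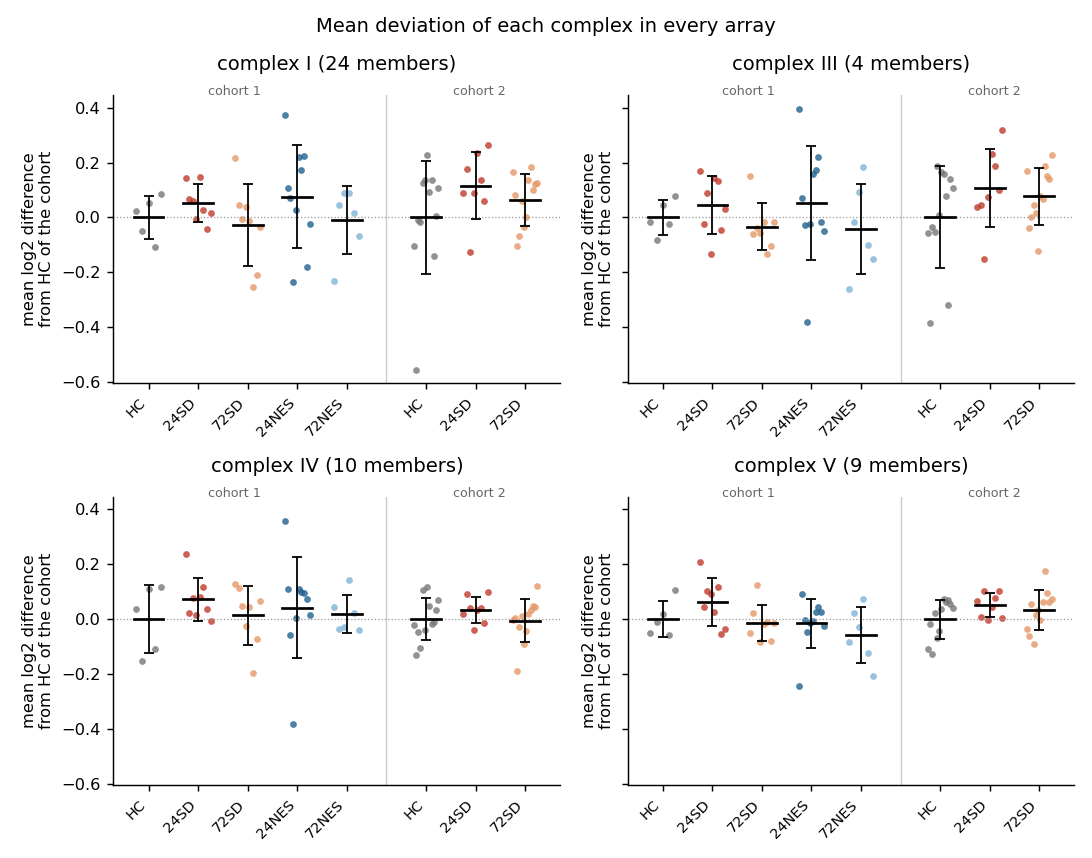
Mean level of complexes I, III, IV and V on each array, as the log2 difference from the HC mean of its cohort (vertical axis), in the 8 group by cohort cells (horizontal axis). Points are animals, lines are cell means and bars are SD. All cells overlap with HC of their cohort, and for complex I the lowest array of all, at -0.56, is an HC animal of cohort 2.

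By animal, the median level of the members relative to HC was above 0 in 7 of 8 24SD arrays of cohort 1, from -0.060 through 0.062 to 0.19. In cohort 2 it was above 0 in all 8, from 0.028 through 0.074 to 0.15. The HC arrays of cohort 2 ran from -0.25 through 0.031 to 0.19, with 10 of 12 above 0, so the groups overlapped. The SD of the members' level over HC arrays was 0.097, larger than the median difference of 0.073 at 24SD. It was 0.18 for complex I, 0.15 for complex II, 0.16 for complex III, 0.092 for complex IV and 0.070 for complex V. Each complex's median difference at 24SD was thus smaller than the spread between HC animals.

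After 72 hours of SD the differences were smaller. Of the 53 genes, 34 were above HC and 19 below, with a median of 0.019, where all genes had -0.0073. By limma 0 members passed the adjusted test, where 0.0372% of all genes (1 gene) did, and 0 were under an unadjusted p of 0.05, against 8.52% of all genes. The medians were 0.019 in complex I (17 of 24 above HC), 0.052 in complex III (3 of 4), -0.0071 in complex IV (4 of 10) and 0.030 in complex V (6 of 9), and Sdha was at -0.058. Directions differed by cohort and array: complexes I, III and V were at -0.017, -0.075 and -0.029 in cohort 1 alone and at 0.080, 0.0081 and 0.042 in cohort 2 alone, complex IV was at 0.025 and 0.011, and without HC array 6 of cohort 2 complex I was at -0.011 (11 of 24). Cox5b was at 0.058 ± 0.063 and Ndufs4 at 0.11 ± 0.071.

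Between 24 and 72 hours 42 of 53 genes stood lower at 72SD, with a median of -0.054 and 0.0073 over all genes. By limma no gene of the array passed the adjusted test for this difference (0%), and 3.42% of all genes had an unadjusted p under 0.05. Among the members this was Cox5b alone, at -0.13 ± 0.064 (p = 0.0496, adjusted p = 0.977). In the test over both durations (moderated F), 0 members passed after adjustment against 0.372% of all genes. At an unadjusted p under 0.05 there were 2, Cox5b (p = 0.023, adjusted p = 0.304) and Ndufs4 (p = 0.029, adjusted p = 0.322), against 12.3% of all genes. Without HC array 6 of cohort 2 or HC replicate 4 of cohort 1 this was 1 member, without HC replicate 3 it was 3 and without 24SD array 30 it was 7. It was 8 with each array centred on its median and 0 with the β-actin ratio as a covariate. The methods' 1-way ANOVA on values standardized within cohort gave 8 members at p of at most 0.05 once outlying values (more than 2 SD away from the group mean) were dropped (21.7% of all genes) and 2 without that removal (13.2%).

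The 2 cohorts were compared with their own HC animals. At 24SD the median of the members was 0.043 in cohort 1 (34 of 53 above HC) and 0.072 in cohort 2 (42 of 53), with 30 genes above HC in both, 7 below in both and 16 of opposite sign. At 72SD it was -0.029 in cohort 1 (22 of 53) and 0.035 in cohort 2 (38 of 53), with 14 above in both, 7 below in both and 32 of opposite sign. The cohorts' change differed for 0 members in the interaction test of limma after adjustment (0.186% of all genes), and for 3 at an unadjusted p under 0.05 (7.36% of all genes). Without HC array 6 of cohort 2, or HC replicate 2 or 5 of cohort 1, the 3 were 2.

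Those 3 were Atp5po, the stalk subunit that links the head of ATP synthase to its stator (p = 0.020, adjusted p = 0.546), Ndufb9 (p = 0.030) and Cyc1 (p = 0.049). For each the 72SD change was lower in cohort 1 than in cohort 2, by 0.27 ± 0.097 for Atp5po, 0.65 ± 0.24 for Ndufb9 and 0.60 ± 0.24 for Cyc1. Ndufb9 was at -0.35 in cohort 1, with 2 of 8 72SD arrays above the HC mean, and at 0.30 in cohort 2, with 12 of 12. Its HC arrays in cohort 2 reached from 12.23 to 14.11, the lower end being far from their median of 13.92.

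**Figure D4:**
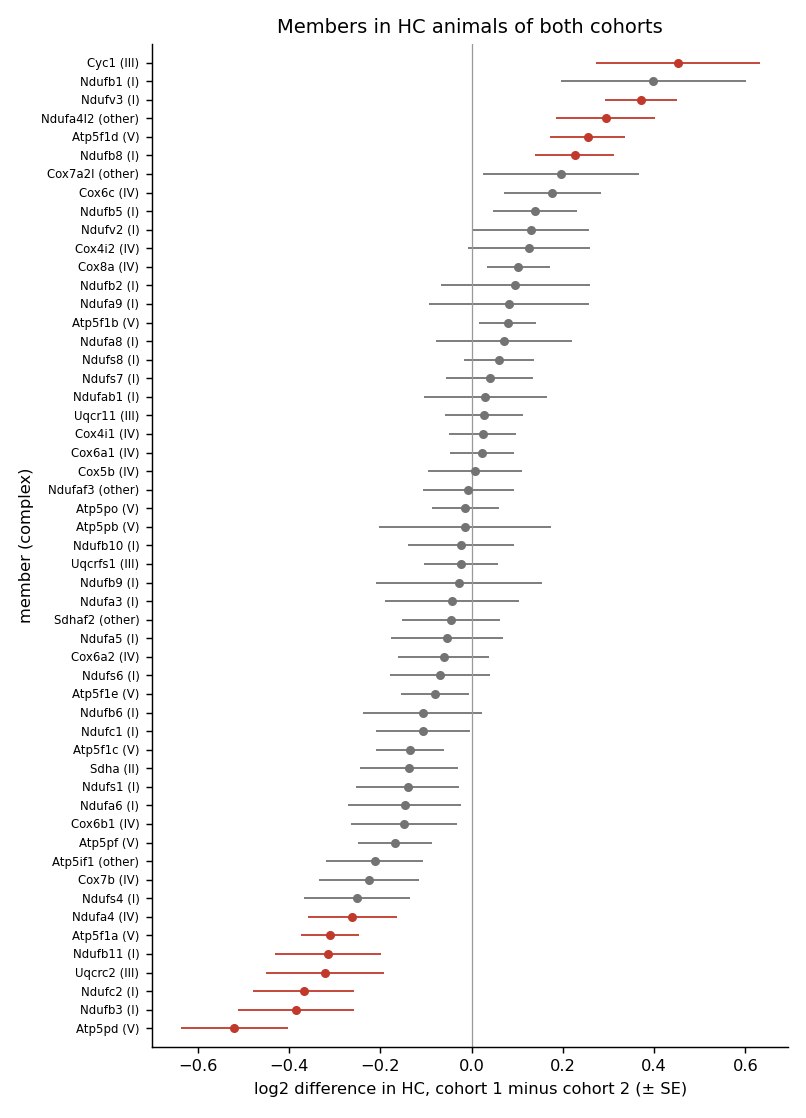
Fitted log2 difference in HC animals, cohort 1 minus cohort 2 (horizontal axis), of the 53 tested genes with their complex (vertical axis). Points are estimates, bars are SE and red marks an adjusted p under 0.05; of the 12 in red, 5 lie above 0 and 7 below.

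The level in HC animals itself differed between the cohorts for 12 of the 53 members after adjustment (limma, adjusted p under 0.05), or 22.6%, below the 34.5% of all genes. Of the 12, 5 were higher in cohort 1 and 7 in cohort 2. Each call rests on the brightest probe set. Of 23 members with 2 or more probe sets above the signal filter, 10 had probe sets that differed in the sign of the cohort difference. Highest in cohort 1 by p was Ndufv3, a small subunit of the NADH-binding arm, by 0.37 ± 0.079 (adjusted p = 2.1e-04), with HC signals of 12.54, 12.76, 12.76, 12.78 and 12.83 in cohort 1 and 12.18 through 12.35 to 12.65 in cohort 2. The groups overlapped in a single cohort 1 array. Atp5f1d was higher by 0.25 ± 0.083 (adjusted p = 0.014, or 0.054 without HC replicate 3 of cohort 1) and Ndufa4l2, a relative of Ndufa4 tied to low oxygen, by 0.29 ± 0.11 (adjusted p = 0.030, past 0.05 when any HC array of cohort 1 other than replicate 3 was left out). The dim pseudogene Cox6c-ps1, outside the 53 and tested over every probe set, was 0.77 ± 0.21 higher in cohort 1 (adjusted p = 0.0048).

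Lower in cohort 1 were Atp5f1a, the alpha subunit of the ATP synthase head, by 0.31 ± 0.064 (adjusted p = 1.4e-04), Atp5pd by 0.52 ± 0.12 (adjusted p = 4.6e-04) and Ndufc2, a membrane arm subunit, by 0.37 ± 0.11 (adjusted p = 0.0078). HC signals of Atp5f1a were 12.81, 12.83, 12.97, 13.07 and 13.18 in cohort 1 and 13.03 through 13.33 to 13.44 in cohort 2, with overlap at the ends. Signals of Atp5pd were 12.29, 12.76, 12.79, 12.80 and 12.90 in cohort 1 and 12.74 through 13.27 to 13.57 in cohort 2. The remaining 6 were Ndufb8 and Cyc1, higher in cohort 1, and Ndufb3, Ndufb11, Ndufa4 and Uqcrc2, higher in cohort 2. These 6 each lost the call when at least 1 HC array of cohort 1 was left out, and without HC replicate 2 the count was 7, with Ndufa4 at an adjusted p of 0.339. Training and array processing by cohort cannot be told apart from cohort here. Cell type markers were read in these HC animals too, as cohort 1 minus cohort 2, where 34.5% of all genes were called. The medians were -0.62 for 2 CA1 pyramidal markers (1 called) and -0.56 for 3 dentate granule markers (2 called). They were 0.24 for 11 neuronal markers (6 called higher, 1 lower) and 0.40 for 4 blood markers (2 called). Choroid plexus and meningeal markers had 0.27 over 7 (1 called each way). Astrocyte markers had -0.15 over 9 (2 called) and oligodendrocyte markers -0.15 over 11 (2 called higher, 1 lower). Interneuron markers had -0.13 over 10 (1 called higher, 3 lower). Microglial markers had -0.073 (0 of 4 called) and endothelial markers -0.0013 (1 of 4 called). The part of cell types in the members' differences was not tested.

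NES for 24 hours gave a median of 0.055 over the members, with 34 of 53 above HC, where all genes had -0.019. By limma 0 members passed the adjusted test (0.446% of all genes), and 6 (11.3%) had an unadjusted p under 0.05, against 15.1% of all genes. Without HC replicate 2 or HC replicate 4 the 6 were 3, and with HC replicate 1 or 5 left out they were 4. Complex I had a median of 0.063 (20 of 24 above HC), complex III -0.0083 (2 of 4), complex IV 0.010 (5 of 10), complex V -0.030 (3 of 9) and Sdha -0.087. Of the 6, Ndufa5 was at 0.27 ± 0.11, above the HC mean in 10 of 10 24NES arrays, Ndufb6 at 0.42, Ndufb11 at 0.21 and Uqcrc2 at 0.41 ± 0.20, and Atp5f1d (-0.31) and Sdhaf2 (-0.34) were lower.

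Atp5f1d had the smallest p among the members at 24NES, at -0.31 ± 0.11 (p = 0.0081, adjusted p = 0.174), a fold of 1.24 lower. Its signals were 13.13, 13.20, 13.26, 13.40 and 13.43 in HC, and 12.52 at the lowest, 13.00 at the median and 13.31 at the highest of the 10 24NES arrays. Of these, 8 lay below every HC array. A second probe set of the gene, also above the signal filter, was at -0.17 ± 0.12 (p = 0.17). At 72NES the range was 12.91 through 13.14 to 13.33, with 3 of 6 below every HC array and a difference of -0.15 ± 0.12.

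At 72NES the members had a median of 0.0087, with 27 above HC and 26 below, against 0.014 over all genes. By limma no gene of the array passed after adjustment (0%), and 0 members had an unadjusted p under 0.05, against 5.99% of all genes. In the F-test over both NES durations no gene of the array passed (0%), and 4 members had an unadjusted p under 0.05, against 11.4% of all genes (2 without HC replicate 5, 7 without 24NES array 61). They were Ndufb3, a membrane arm subunit of complex I (0.23 ± 0.14 at 24 and -0.18 ± 0.16 at 72 hours, p = 0.014, adjusted p = 0.314), Atp5f1d (p = 0.025), Ndufa5 (p = 0.029) and Cox4i2 (-0.16 ± 0.18 and 0.30 ± 0.20, p = 0.047). Among the others, Uqcr11 was at -0.19 ± 0.097 at 24NES, Cox7b at 0.26 ± 0.14, and Atp5f1a at -0.030 at 24NES and -0.20 ± 0.13 at 72NES.

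SD was set against NES of the same duration within cohort 1, without the HC arrays. At 24 hours the members had a median difference of -0.0049, with 26 higher in SD and 27 lower. By limma 0 passed after adjustment (0.0372% of all genes, 1 gene), and 2 had an unadjusted p under 0.05, against 6.06% of all genes (1 without 24NES array 61, 3 without array 58). Complex V had 8 of 9 genes higher in SD, with a median of 0.044. Atp5f1d was 0.36 ± 0.089 higher in 24SD than in 24NES (p = 2.3e-04, adjusted p = 0.111), a fold of 1.28. Its 8 24SD arrays ran from 13.20 through 13.31 to 13.60, and 1 of the 10 24NES arrays reached into that range.

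A second probe set for Atp5f1d gave 0.27 (p = 0.011, adjusted p = 0.653 over every probe set), in the same direction. Cox4i2 was 0.29 ± 0.14 higher in SD (p = 0.046, adjusted p = 0.799) and Ndufb3 0.25 ± 0.13 lower (p = 0.056). At 72 hours, 28 were higher in SD and 25 lower. By limma 0 of the array's genes passed (0%), and 3 members had an unadjusted p under 0.05, against 7.55% of all genes: Ndufs1 (0.36 ± 0.14, p = 0.014, adjusted p = 0.621), Ndufb9 (-0.35 ± 0.15, p = 0.028) and Ndufab1, the mitochondrial acyl carrier protein (-0.26 ± 0.12, p = 0.042). Without 72NES array 71, whose β-actin ratio was the highest, none of the 3 had an unadjusted p under 0.05.

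**Figure D5:**
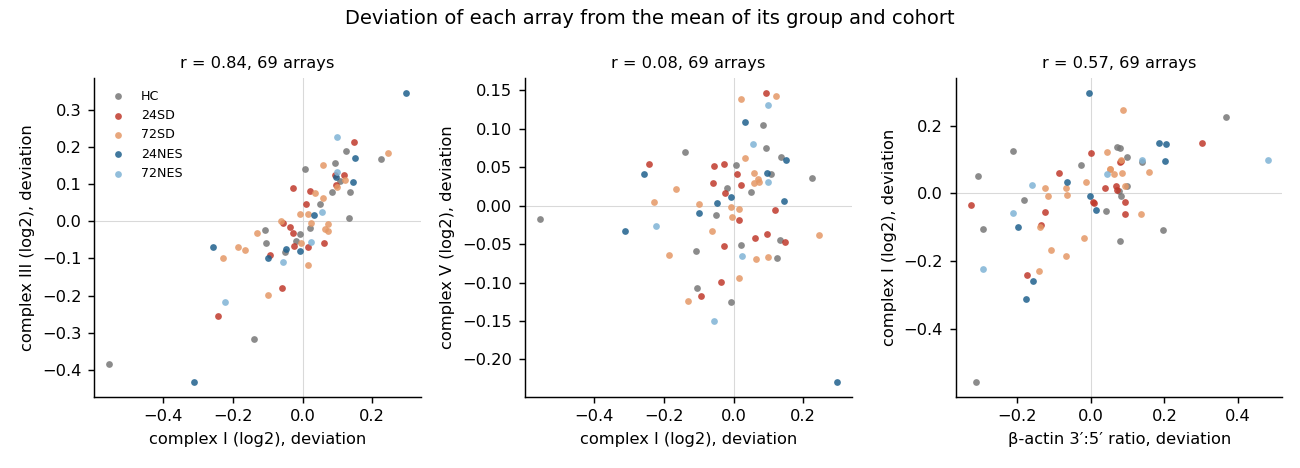
Complex III and complex V levels against that of complex I, and complex I against the β-actin 3′ to 5′ ratio, each as the deviation from the mean of its group by cohort cell (log2 for levels). Points are the 69 arrays, coloured by group. Complex I follows complex III (r = 0.84) and the β-actin ratio (r = 0.57), whereas r with complex V is 0.084.

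From animal to animal within a cell, complexes I, III and IV moved together, and complex V was less closely tied to them. Over 69 arrays, as deviations from the mean of each group by cohort cell, complex I correlated with complex III at r = 0.84 (rho = 0.83, 0.81 without the 2 farthest arrays), 0.85 in cohort 1 and 0.84 in cohort 2. With complex IV it was 0.66 (rho = 0.66, 0.63 without the 2 farthest), and with complex V 0.084 (rho = 0.20, 0.065 without the 2 farthest). Complexes III and IV correlated at 0.71 (rho = 0.68), III and V at 0.12 (rho = 0.29, 0.10 without the 2 farthest), and IV and V at 0.14 (rho = 0.35, 0.37 without the 2 farthest, which were 24NES arrays 58 and 61). The 2 farthest were picked on the first measure named in each pair. For I with V and III with V they were HC array 6 of cohort 2 and 24NES array 61. The 24NES array 58, at -0.25 for complex V, stayed in, and these correlations were not run without it. All points share the scaling of their array, so all the correlations are descriptions.

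The β-actin ratio moved most with complexes I and III and less with IV and V. Its correlation was 0.57 with complex I (rho = 0.55, 0.59 without the 2 farthest, 0.51 and 0.64 in the cohorts), 0.55 with complex III, 0.31 with complex IV (0.24 and 0.48 in the cohorts), 0.32 with complex V (0.38 and 0.22) and 0.51 with the members' median. In cohort 1 the mean ratio was 1.21 (HC), 1.32 (24SD), 1.23 (72SD), 1.35 (24NES) and 1.28 (72NES). In cohort 2 the mean was 1.30 for HC, 1.40 for 24SD and 1.38 for 72SD. The ratio was thus above HC in every exposed group of each cohort, at 24 and at 72 hours. The members' median difference from HC was 0.073 at 24SD, 0.019 at 72SD, 0.055 at 24NES and 0.0087 at 72NES. Whether RNA integrity set these differences was not tested. With the ratio as a covariate, an alternative chosen after the data had been seen, the median at 24SD was 0.041, with 41 of 53 above HC and 2 members under an unadjusted p of 0.05, and that at 24NES -0.0044, with 25 of 53. The complex I median at 24SD was then 0.048 (19 of 24) and the complex V median 0.040 (8 of 9).

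A few arrays stood apart. HC array 6 of cohort 2 was 0.56 below its HC mean for complex I and 0.38 below for complex III, with a β-actin ratio of 0.993. Without it the median of the members at 24SD was 0.060. The 24NES array 58 was at 0.37, 0.40 and 0.36 for complexes I, III and IV but -0.25 for complex V and -1.37 for Sdha, and array 61 of the same group was at -0.24, -0.38 and -0.38 for the first 3. Without array 58 the members' median at 24NES was 0.025 with 29 of 53 above HC, the complex I median 0.019 (13 of 24) and the complex V median 0.025 (5 of 9), and without array 61 the members' median was 0.088.

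Several probe sets measured the same gene for 28 members. In 9 of them the probe sets differed in the sign of the mean SD change: Cox4i1, Cox6a1, Cox8a, Ndufaf3, Ndufb5, Ndufc1, Ndufs4, Ndufs8 and Uqcr11, and for Ndufs4 this came from a dim probe set alone. The difference was plain for Ndufaf3, whose 3 probe sets gave 0.13 ± 0.067, -0.12 ± 0.061 and -0.17 ± 0.10 at 24SD, and for Uqcr11, whose 2 gave -0.094 ± 0.057 and 0.056 ± 0.049. Cox5b had a second probe set at 0.19 ± 0.063, and the second of Ndufs4 was at 0.20 ± 0.11.

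Other genes of mitochondrial energy metabolism were described from lists. Of the 3 subunits encoded by mitochondrial DNA, 2 were above HC at 24SD, with COX2 at 0.34 ± 0.15 (p = 0.028) and COX1 at -0.068, and 0 of 3 passed after adjustment. Among pyruvate dehydrogenase and citric acid cycle genes 5 of 9 were above HC with a median of 0.019, led by Idh3g (0.15 ± 0.055, p = 0.0079, adjusted p = 0.120) and Idh2 (0.13 ± 0.066), subunits of isocitrate dehydrogenases. Mitochondrial import and chaperone genes were above HC in 7 of 8, median 0.053, with Hspa9, the matrix Hsp70, at 0.38 ± 0.15 (p = 0.015) and Pmpca, a subunit of the matrix processing peptidase, at -0.14 ± 0.058. None of these genes passed after adjustment at 24SD.

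Carriers and porins were above HC in 3 of 9 with a median of -0.025, with the citrate carrier Slc25a1 at -0.19 and the ADP/ATP carrier Slc25a4 at -0.087 ± 0.043 (p = 0.046). Mitochondrial ribosomal protein genes were above in 4 of 14, median -0.024, with Mrpl23 at 0.16 ± 0.054 (p = 0.0033, adjusted p = 0.092) and Mrpl50 at -0.19. Assembly and biogenesis genes were above in 2 of 4, median -0.0098, with Ssbp1, the mitochondrial single-stranded DNA binding protein, at 0.12 and Sdhaf2 at -0.093. Electron inputs other than complexes I and II were above in 3 of 4, median 0.037, with Etfa, which accepts electrons from fatty acid oxidation, at 0.073 and Coq3, an enzyme of ubiquinone synthesis, at 0.0019. By limma 0 genes of these lists passed after adjustment at 24SD, and at an unadjusted p under 0.05 there were 2 carriers, 1 ribosomal protein gene and 1 assembly gene, against the background of 19.1% of all genes.

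Markers of cell types were read in the same arrays. Neuronal markers were above HC at 24SD in 1 of 11, with a median of -0.070, with Snap25 at -0.24 ± 0.082 (p = 0.0054, adjusted p = 0.112) and Syp at -0.15. Both CA1 pyramidal markers on the array, Pou3f1 (0.21 ± 0.093) and Camk2a (0.16 ± 0.100), passed the signal filter and were above HC. Dentate granule cell markers were above HC in 3 of 3 tested (of 4 on the array) with a median of 0.29. Neurod1 rose by 0.36 ± 0.098 (adjusted p = 0.041), and Il1rap was at 0.29 ± 0.11. The mean level of the 3 on an array, relative to HC, ran in cohort 1 from -0.14 to 0.14 (HC), from 0.27 to 0.42 (24SD), up to 0.67 (72SD), from 0.16 to 0.96 (24NES) and up to 0.43 (72NES). In cohort 2 the ranges were -0.54 to 0.30 for HC, -0.13 to 0.55 for 24SD and -0.29 to 0.37 for 72SD. These markers were thus higher at 24 hours as the members were, and their part in the members' difference was not tested.

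Choroid plexus and meningeal markers were above HC in 4 of 7, median 0.038, and 1, Rbp4, rose by 0.43 ± 0.10 (adjusted p = 0.026). Dcn of the same list was at -0.31. Astrocyte markers were above HC in 5 of 9, median 0.0013 (Aqp4 -0.21 and Slc1a2 -0.11 had the smallest p, and Fabp7 was highest at 0.12), oligodendrocyte markers in 8 of 11, median 0.048 (Pdgfra 0.29, Gjb1 -0.24), and interneuron markers in 4 of 10, median -0.011. Among the interneuron markers Pvalb was at 0.19 and Vip at 0.10, while Gad2 (-0.19), Slc32a1 (-0.17) and Calb2 (-0.15) were below. At an unadjusted p under 0.05 (limma) there were 1 above HC, Pvalb, and these 3 below, against 19.1% of all genes. Microglial markers were above in 2 of 4, median -0.010 (C1qb 0.14, Aif1 -0.036), endothelial markers in 3 of 4, median 0.063 (Slc2a1 0.20, Ocln 0.046), and blood markers in 2 of 4, median 0.013 (Hbb 0.11, Slc4a1 -0.13). The blood markers went opposite ways in the cohorts: their mean level at 24SD was -0.32 in cohort 1, below 0 on all 8 arrays, and 0.18 in cohort 2, above 0 on all 8, and at 72SD it was -0.37 and 0.13. At 24NES 4 of 4 were below HC, median -0.43. Of the cell type markers other than Neurod1 and Rbp4, 0 passed after adjustment at 24SD.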

How the data were processed

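CA1 RNA of 69 rats was measured on 1 array per animal. Intensity values were deposited by the authors as MAS5 signals (version not given in the sources used here), linear and scaled per array. Of 8799 probe sets, 59 controls were left out, 7006 have 1 symbol and 308 several. Of the symbols, 99.7% matched RefSeq by gene number. Signals were floored at 1 and log2 transformed, and probe sets in the upper 50% of mean signal (443 or more) were kept, the brightest per gene. Detection calls are not used here. SD (53 arrays, cohort as a term) and NES (21 arrays of cohort 1) were fitted with limma 3.58.1 in R 4.3.3, with Benjamini-Hochberg adjustment over 2689 genes and a threshold of 0.05. Dimmer members and further probe sets of a gene came from a fit over all probe sets. SD against NES used 37 arrays of cohort 1. The scripts were tested on simulated data. Figures used matplotlib 3.10.9 in Python 3.11.15.

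Named genes are the set's 3 markers, members called in any comparison (for cohorts, 3 per direction), the members with the smallest p per complex and comparison, members whose probe sets disagree in sign, and 2 genes per list; Ndufb9, Ndufb6, Ndufb11, Atp5if1, Cox7a2l, Fabp7, Gad2, Slc32a1, Calb2 and the other cohort genes were added after their values were seen. Members and lists were chosen with earlier results of these data known. Alternatives were quantile normalization, median centring, a floor of 50, no filter, the upper 40%, every probe set, robust eBayes, the methods' ANOVA, single cohorts, arrays left out and, added after seeing the data, the β-actin ratio as a covariate and 3 more arrays left out. The number of arrays limits the precision.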

Additional observations from a re-analysis of the deposited data

Results flagged for a closer look

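Of 72 groups of 5 to 10 arrays examined for a sample far from the others (Dixon's ratio at the 95% level), 11 held one. Chance gives about 1 in 20 for independent groups, but these share arrays and genes, so no excess is read from the count. HC and 72SD of cohort 2, with 12 arrays each, were not examined. In cohort 1 HC the low values were Ndufs4 at 10.89 on array 4 (next lowest 11.48), Ndufv3 at 12.54 on array 5 (12.76) and Atp5pd at 12.29 on array 3 (12.76), each on the log2 signal scale and each on another animal. In 24SD of cohort 1, Cox5b was low on array 24 (13.54, next 13.84) and Atp5f1d high on array 18 (13.60, next 13.37). In 72SD of cohort 1 the complex III mean was high on array 36, at 0.15 above the HC mean. The 24NES array 58 was low for the complex V mean (-0.25, next -0.049), Sdha (11.25, next 12.53) and Atp5f1a (12.36, next 12.80), and array 66 was low for Ndufs4 (11.07, next 11.59). In 24SD of cohort 2 Sdha was low on array 30 (12.13, next 12.51).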

How the results depend on the processing

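The count of members past the adjusted test was 0 under every alternative run for SD, NES, SD against NES at both durations and the cohort interaction, including the methods' ANOVA. The 12 members that differed between cohorts in HC were 7 without HC replicate 2, and 7 to 8 when each HC array of cohort 1 was left out in turn, 8 with every probe set tested and 9 with no filter. Over these 12 genes and their alternatives, 36 of 168 values lost the call (Uqcrc2, Cyc1, Ndufb8, Ndufa4l2, Ndufb11, Ndufb3, Ndufa4 and Atp5f1d) and 0 reversed; the cause was not tested. At an unadjusted p under 0.05 the SD F-test gave 2 members, 8 with median centring, 7 without 24SD array 30 and 0 with the β-actin covariate. The median at 24SD (0.073) ran from 0.041 with that covariate to 0.11 with median centring, where all genes had 0.019, and was 0.046 with cohort left out and 0.062 with quantile normalization. It was 0.060 to 0.092 when the 5 HC arrays of cohort 1 were left out in turn, and of the HC arrays of cohort 2 array 6 alone was left out. The median at 72SD (0.019) was -0.029 in cohort 1 alone, 0.035 in cohort 2 alone, 0.0016 with the covariate and 0.041 with median centring. That at 24NES (0.055) was -0.0044 with the covariate, and that at 72NES (0.0087) was -0.050 without array 71 and -0.025 with the covariate. No paired analysis was possible because subject numbers are not shared between groups. Cox5a, Cox8b and Cox6c-ps1 lay under the signal filter, so that their values rest on dim probe sets.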
